A study of Mus musculus with 15 samples.

Results

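The genes described here are 35 mouse genes that sensory neurons are known to regulate after nerve injury or during axon regeneration, taken from a list of gene symbols. Of the 35, 34 were measured by a probe set that names a single gene, among 19938 such genes. Cdkn1a, which encodes a cell cycle inhibitor, was covered by a probe set shared with a second gene and was not used. Hspb1 had 2 probe sets and each of the other members had 1.

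RNA came from large sensory neurons, over 26.9 µm in diameter, sorted from the dissociated lumbar 2 to 5 dorsal root ganglia of C57BL/6 mice and hybridised to Affymetrix whole transcript arrays, 15 arrays in all. All of the mice were reporters in which the promoter of the peptide CGRP, a transmitter of many nociceptors, drove green fluorescent protein (GFP); CGRP status was read from GFP. Every mouse had also received a wheat germ agglutinin tracer 5 days before killing, in the gastrocnemius muscle or at the saphenous nerve, so that neurons could be sorted by their target. The skin neurons, called paw below, were CGRP-positive and came from mice given saline or CFA (complete Freund's adjuvant, which causes lasting inflammation) in the paw. The muscle neurons were CGRP-negative and came from mice given saline, CFA or acid in the muscle. Each of the 5 groups had 3 biological replicates, and the saline groups were the controls. Target tissue, CGRP status, place of injection and place of the tracer differ together between the paw and the muscle groups. Their parts in a difference between those groups cannot be told apart. Dissociation severs axons, and no group was left without dissociation or tracer, so the level of the members before these steps was not measured. How many mice each array stands for, their age and the time from injection to killing are not given in the sources used here.

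When the axon of a sensory neuron is damaged, kinases such as DLK and JNK carry a signal back to the cell body, where transcription factors including ATF3 and c-JUN switch on a growth programme. The programme includes growth cone proteins such as GAP43 and SPRR1A, neuropeptides such as galanin that intact large neurons make little of, and secreted signals such as CSF1 that act on microglia and macrophages. Several of these genes are also induced by inflammation or by the handling of neurons during dissociation.

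RefSeq promoter sequences (GRCm38.p6) were at hand for 26 of the 35 members, as 33 start site windows, and the 250 bases before each start were searched on both strands for short motifs. The AP-1 motif TGANTCA, which dimers of c-JUN and its partners bind, lay in the windows of 4 of the 26 genes (Sprr1a, Nts, Bdnf and Plaur), against 7.19% of 17491 genes searched the same way. Shown here are Sprr1a and galanin (Gal), which had the largest differences after CFA in the paw, and neurotensin (Nts), whose paw groups did not overlap. Vip and Csf1, whose paw groups did not overlap either, had no AP-1 match. Sema6a, the remaining such member, had no window. Each sequence runs 5′ to 3′ towards the start site, on the minus strand, with matches in capitals. For Sprr1a (chr3:92485882-92486131) the capitals mark AP-1 matches at 146 to 140 and 116 to 110 bases before the start and a TATAAA match at 43 to 38. In Nts (chr10:102490419-102490668) they mark 1 AP-1 match at 207 to 201 bases before the start. Gal (chr19:3414545-3414794) held none of the motifs searched.
Sprr1a: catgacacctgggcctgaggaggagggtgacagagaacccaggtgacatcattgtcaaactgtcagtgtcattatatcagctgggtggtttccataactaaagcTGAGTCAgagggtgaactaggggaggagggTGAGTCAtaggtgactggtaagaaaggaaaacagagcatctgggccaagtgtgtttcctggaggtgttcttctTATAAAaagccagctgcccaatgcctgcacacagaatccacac
Nts: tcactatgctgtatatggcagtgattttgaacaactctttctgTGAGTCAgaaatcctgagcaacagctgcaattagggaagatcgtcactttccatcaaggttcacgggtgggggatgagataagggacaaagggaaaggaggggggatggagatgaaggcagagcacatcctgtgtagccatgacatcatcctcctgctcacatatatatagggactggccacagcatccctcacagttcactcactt
Gal: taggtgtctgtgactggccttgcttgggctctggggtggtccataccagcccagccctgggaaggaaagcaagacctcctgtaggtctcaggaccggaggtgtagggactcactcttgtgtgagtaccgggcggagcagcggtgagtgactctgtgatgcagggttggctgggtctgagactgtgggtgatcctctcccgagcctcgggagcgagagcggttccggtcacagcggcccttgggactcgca
The other motifs searched were the CRE motif TGACGTCA, with no match in the 26 genes and in 2.20% of all genes, and the STAT motif TTCNNNGAA, found in Bdnf alone and in 7.65% of all genes. TATAAA was found in Sprr1a, Vip and Anxa1 and in 13.7% of all genes, and a heat shock element (GAA, TTC and GAA spaced by 2 free bases) in none of the 26 and in 0.452% of all genes. The AP-1 and CRE motifs share letters, but neither can lie wholly inside the other. A match describes letters only, and binding was not measured.

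Values are the submitters' normalized expression values on a log2 scale, where a difference of 1 is a doubling. A probe set was called dim when its mean lay under 2.44, the level below which 95% of odorant and pheromone receptor genes lie, since sensory ganglia are not a site of their use. The median member had a mean level of 3.93, against 3.13 over all genes, and 6 of the 34 members were dim, against 32.7% of all genes. The dim members were Vip and Crh (peptides), Gpr151 (an orphan receptor), Arg1 (arginase), Ankrd1 and Anxa1. All 8 transcription factors were above that limit, Atf3 among them, whose lowest value on any array was 5.41. The pooled standard deviation within groups was 0.286 for the median member and 0.232 for the median gene, and Sprr1a had the widest of the members at 1.23.

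The sorted cells carried neuronal RNA, with all 10 measured general neuronal markers and all 11 measured markers of large myelinated neurons above the dim limit. All 5 measured markers of peptidergic nociceptors and all 6 of non-peptidergic nociceptors were above that limit as well, so it does not tell these classes apart. Markers of satellite glia and of Schwann cells were above it too, 7 of 7 measured each. So were 6 of 7 fibroblast, 5 of 6 endothelial and 5 of 5 mural cell markers. By contrast, 8 of 12 macrophage markers, Ptprc, Adgre1 and Aif1 among them, and 6 of 7 neutrophil markers were dim. The macrophage markers above the limit were Csf1r (mean 2.82), C1qa (2.63), Cd68 (2.53) and C1qc (2.52). Several members, Jun and Gap43 among them, are also made by glia, and in such pooled samples fewer cells of a type and less RNA per cell cannot be told apart. Saline paw replicate 1 stood apart from the other paw arrays: on the first principal component it lay at -22.3 among the muscle arrays, which ran from -50.5 to -5.67, while the 5 other paw arrays ran from 32.5 to 58.1. It was the lowest of the 6 paw arrays for 17 of the 34 members (31.2% of all genes) and the highest for 5 (39.3% of all genes). Results that rest on it are given with and without it.

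**Figure D1:**
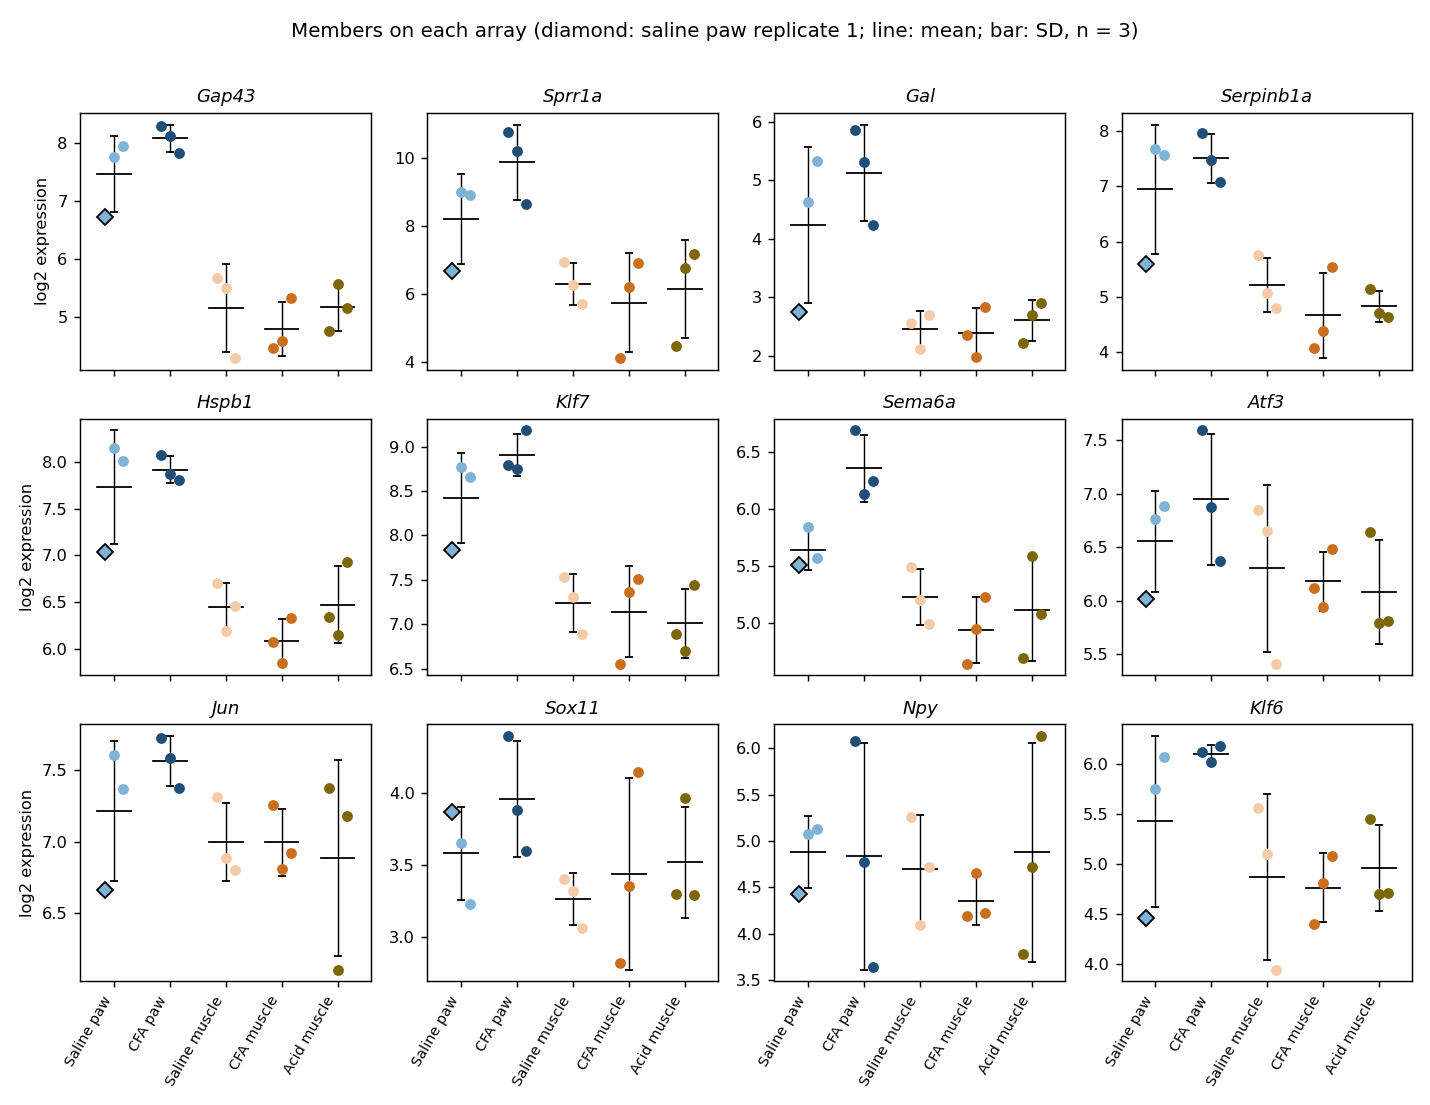
Level of 12 member genes on each of the 15 arrays, as log2 normalized expression, by group. Points are arrays, the line is the group mean, the bar its SD (n = 3) and the diamond saline paw replicate 1. Gap43, Hspb1 and Klf7 are higher on every paw array than on every muscle array.

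The first comparison asks how the members differ between skin and muscle neurons. Gap43, which encodes a membrane protein of growing axon tips, and Hspb1, a small heat shock protein that protects injured neurons, were higher in skin neurons than in muscle neurons after saline and also after CFA. After CFA, 5 more members were higher in skin neurons: Sprr1a, a cornified envelope protein that regenerating axons contain, Serpinb1a, an inhibitor of neutrophil proteases, Gal, which encodes galanin, Klf7, a transcription factor that promotes axon growth, and Sema6a, a membrane semaphorin that guides axons. No member was lower in skin neurons in either comparison by the same test. Without saline paw replicate 1, Sprr1a, Serpinb1a, Gal and Klf7 were called higher after saline too, and Arg1 lower. The test of whether CFA acted differently in skin and muscle neurons called 0 members. Calls are from limma over all 19938 genes, with Benjamini-Hochberg adjusted p under 0.05.

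In detail, Gap43 measured 6.72, 7.75 and 7.94 in saline paw replicates 1, 2 and 3, 8.29, 8.12 and 7.82 in CFA paw, 5.67, 5.51 and 4.30 in saline muscle, 4.48, 4.60 and 5.34 in CFA muscle and 4.78, 5.58 and 5.16 in acid muscle. Its lowest paw value, on saline paw replicate 1, was above its highest muscle value. The difference was 2.31 (SE 0.377, 4.95-fold, limma with Benjamini-Hochberg adjusted p = 0.00728) after saline and 3.27 (SE 0.377, 9.64-fold, adjusted p = 0.000313 in the same fit) after CFA.

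Hspb1 measured 7.04, 8.16 and 8.01 in the saline paw replicates, 8.08, 7.88 and 7.81 in CFA paw, 6.70, 6.19 and 6.46 in saline muscle, 6.07, 5.84 and 6.32 in CFA muscle and 6.34, 6.14 and 6.93 in acid muscle. Again no paw array overlapped the muscle arrays, although saline paw replicate 1 lay close to acid muscle replicate 3. Hspb1 was higher in paw by 1.28 (SE 0.271, 2.43-fold, limma with Benjamini-Hochberg adjusted p = 0.0287) after saline and by 1.84 (SE 0.271, 3.59-fold, adjusted p = 0.00145) after CFA. The second Hspb1 probe set, not used in the fit, gave 1.34 and 1.86.

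Sprr1a measured 6.69, 9.02 and 8.94 in saline paw, 10.79, 10.22 and 8.65 in CFA paw, 6.95, 6.28 and 5.71 in saline muscle, 4.12, 6.22 and 6.92 in CFA muscle and 4.48, 6.78 and 7.19 in acid muscle. Replicate 1 of saline paw lay within the muscle range, whereas the 3 CFA paw arrays were above every muscle array. After CFA the difference between paw and muscle was 4.14 (SE 0.848, 17.6-fold, limma with Benjamini-Hochberg adjusted p = 0.0103), ranking 1 of 19938 genes by size. The call was lost without CFA muscle replicate 1 (3.32, adjusted p = 0.0571 in limma) and without CFA paw replicate 1 (3.69, adjusted p = 0.0554).

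Galanin (Gal) measured 2.75, 4.63 and 5.33 in saline paw, 5.85, 5.31 and 4.24 in CFA paw, 2.56, 2.11 and 2.70 in saline muscle, 2.36, 1.98 and 2.84 in CFA muscle and 2.22, 2.70 and 2.91 in acid muscle. The 5 other paw arrays were at 4.24 or more and every muscle array at 2.91 or less, around the dim limit, where saline paw replicate 1 lay too. Gal differed by 2.74 (SE 0.524, limma with Benjamini-Hochberg adjusted p = 0.0071) after CFA and by 1.78 (SE 0.524, adjusted p = 0.0984), not called, after saline. Its CFA muscle mean (2.39) was under the dim limit, so as a fold CFA paw was at least 6.45-fold higher, taken against that limit.

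Serpinb1a measured 5.60, 7.68 and 7.58 in saline paw, 7.96, 7.48 and 7.08 in CFA paw, 5.75, 5.07 and 4.80 in saline muscle, 4.06, 4.39 and 5.53 in CFA muscle and 5.14, 4.70 and 4.64 in acid muscle. It shared with Sprr1a and Gal the low value of saline paw replicate 1, which lay below saline muscle replicate 1. After CFA the difference was 2.85 (SE 0.49, 7.19-fold, limma with Benjamini-Hochberg adjusted p = 0.00407).

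Klf7 measured 7.84, 8.77 and 8.65 in saline paw, 8.79, 8.74 and 9.18 in CFA paw, 7.54, 7.31 and 6.89 in saline muscle, 6.55, 7.36 and 7.51 in CFA muscle and 6.89, 6.70 and 7.44 in acid muscle. All paw arrays lay above all muscle arrays. The difference after CFA was 1.76 (SE 0.296, 3.39-fold, limma with Benjamini-Hochberg adjusted p = 0.00338), and after saline it was 1.18 (SE 0.296, adjusted p = 0.0553).

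Sema6a measured 5.51, 5.85 and 5.57 in saline paw, 6.69, 6.14 and 6.25 in CFA paw, 5.49, 5.21 and 4.99 in saline muscle, 4.64, 4.95 and 5.23 in CFA muscle and 4.69, 5.59 and 5.08 in acid muscle. The CFA paw arrays were its 3 highest values of the 15. Between paw and muscle it differed by 1.42 (SE 0.231, 2.68-fold, limma with Benjamini-Hochberg adjusted p = 0.00291) after CFA and by 0.41 (SE 0.231) after saline.

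Against the background of all genes, 2 of 34 members were called after saline, where 2.04% of all genes were (1.87% higher and 0.171% lower), and 7 of 34 after CFA, where 6.41% were (5.75% higher and 0.667% lower). That split over all genes depended on the scaling: 373 higher and 34 lower after saline became 254 and 93 with quantile and 317 and 142 with cyclic loess scaling, and 1146 and 133 after CFA became 608 and 155, and 879 and 228. Each of the 7 members called after CFA was higher under every scaling tried, although Sema6a was not called with quantile scaling (0.96, limma with Benjamini-Hochberg adjusted p = 0.0662). The 3 arrays of a group lay wholly above those of the other for 7 members after saline (Gap43, Hspb1, Klf7, Gal, Sema6a, Tnfrsf12a and Gadd45a; 8.11% of all genes) and 14 after CFA (18.9%). They lay wholly below for Nts, Vip and Star after saline (7.06% of all genes) and for Arg1 and Ankrd1 after CFA (17.1%). The median member difference was 0.14 after saline and 0.49 after CFA, against -0.016 and -0.041 over all genes, and 19 and 27 of 34 were positive, against 47.7% and 43.8%. The medians moved with the scaling: with quantile and cyclic loess scaling the member median was 0.016 and 0.0046 after saline, against 0.015 and 0.011 over all genes, and 0.23 and 0.28 after CFA, against -0.0075 and 0.0022. These comparisons share no arrays, and 19 members were higher in paw in both and 7 lower in both, which is 55.9% and 20.6% of the members, against 34.2% and 42.7% of all genes.

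Counts after saline depended on single arrays. Without saline paw replicate 1, 7 members were called, 6 higher (Gap43, Hspb1, Klf7, Gal, Serpinb1a and Sprr1a) and Arg1 lower (-0.52), when 19.2% of all genes were called. Leaving out saline paw replicate 2 or 3 left 0 called members, with Gap43 at 2.17 and 2.07 (limma, Benjamini-Hochberg adjusted p = 0.0549 and 0.0573), and leaving out saline muscle replicate 2 or 3 left Gap43 alone. A fit of the saline arrays by themselves called 0 members and 0 genes.

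Paw and muscle arrays also differed as wholes. The summed level of the 10 general neuronal markers was 12.24 to 13.19 in saline paw, 12.98 to 13.09 in CFA paw and 10.94 to 12.22 over the 3 muscle groups. Of these 10 markers, 3 were called higher in paw after saline (median difference 1.39) and 7 after CFA (1.60), none lower. Of the 11 markers of large myelinated neurons, 2 were called higher after saline (median 0.62) and 4 after CFA (1.14), none lower. Markers of peptidergic nociceptors, the class that the CGRP sort selects, summed to 8.5 to 9.96 in saline paw, 9.70 to 9.95 in CFA paw and 6.96 to 7.82 in muscle. The part of these shifts in the higher members was not tested. The spread of values within an array, as SD over genes, was 1.66 to 1.80 on the 5 paw arrays other than saline paw replicate 1 and 1.28 to 1.55 on the muscle arrays, and a fit with this SD as a covariate, added after the data were seen, still called Gap43, Hspb1, Klf7 and Sema6a after CFA but not Sprr1a, Gal or Serpinb1a. In that fit Gap43 was still called after saline, and Hspb1 was not (0.70, limma with Benjamini-Hochberg adjusted p = 0.101). Over all genes it called 164 higher and 206 lower after saline, and 232 and 212 after CFA.

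**Figure D2:**
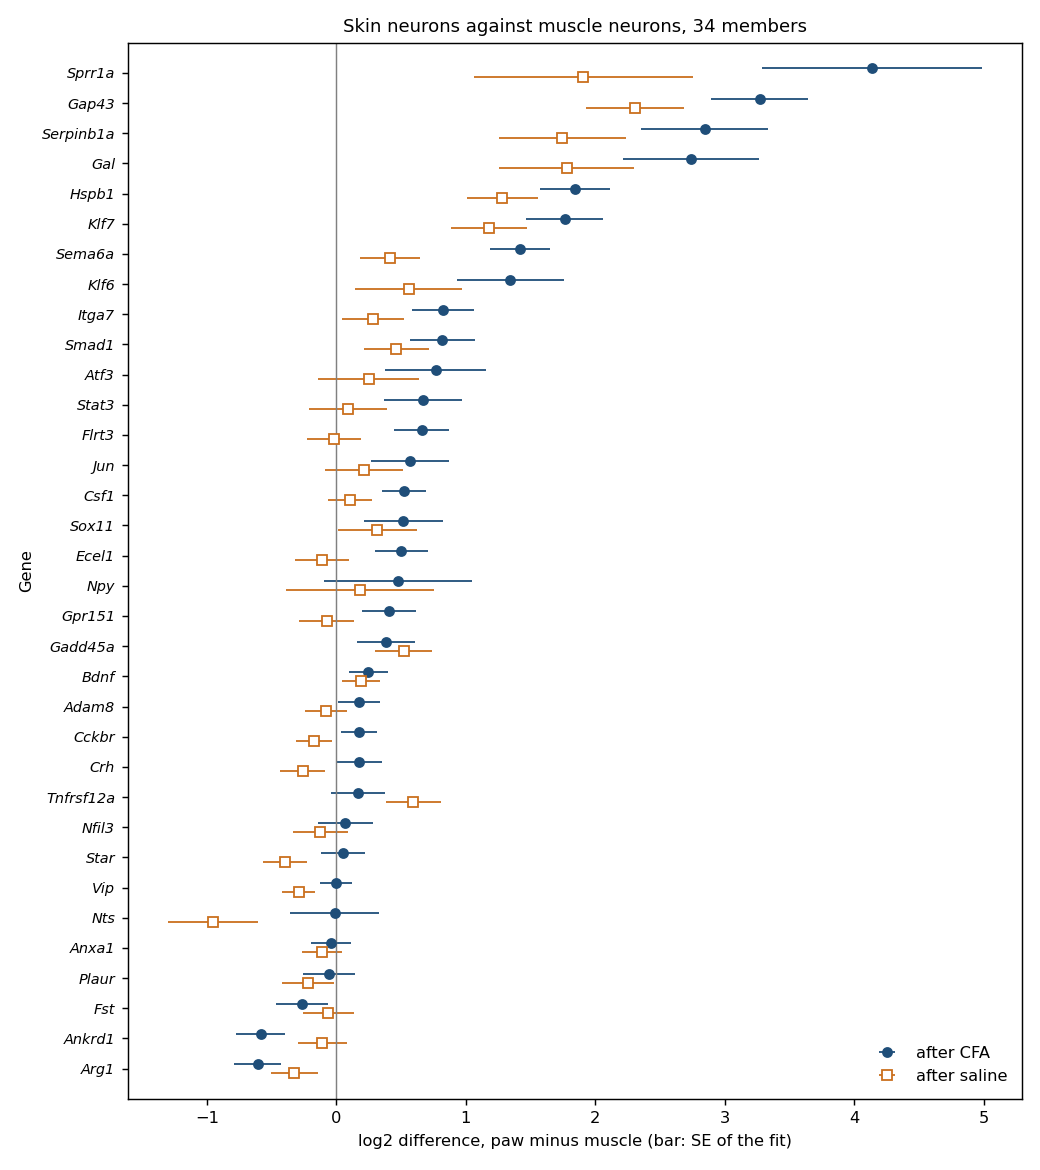
Log2 difference between paw and muscle neurons for the 34 measured members, after CFA (filled) and after saline (open), with the SE of the fit as bars. The order runs from Sprr1a at 4.14 to Arg1 at -0.61 after CFA, and the values after saline are smaller for each of the 7 members called after CFA.

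Atf3 and Jun, the transcription factors that stand at the head of the injury programme, were not among the members called in skin against muscle neurons. Atf3 measured 6.01, 6.76 and 6.89 in saline paw, 7.59, 6.88 and 6.37 in CFA paw, 6.85, 6.65 and 5.41 in saline muscle, 6.12, 5.94 and 6.48 in CFA muscle and 6.64, 5.79 and 5.80 in acid muscle, so that its groups overlapped. The paw minus muscle difference of Atf3 was 0.25 (SE 0.389) after saline and 0.77 (SE 0.389) after CFA, and under quantile and cyclic loess scaling the first was -0.20 and -0.22. Jun measured 6.66, 7.60 and 7.37 in saline paw, 7.73, 7.59 and 7.38 in CFA paw, 7.31, 6.89 and 6.80 in saline muscle, 7.26, 6.80 and 6.92 in CFA muscle and 7.38, 6.10 and 7.18 in acid muscle. Its CFA paw arrays all lay above its CFA muscle arrays, a difference of 0.57 (SE 0.301) that quantile and cyclic loess scaling turned to -0.09 and -0.13.

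Sox11, a transcription factor of growing neurons, measured 3.87, 3.65 and 3.23 in saline paw, 4.39, 3.89 and 3.60 in CFA paw, 3.41, 3.32 and 3.06 in saline muscle, 2.82, 3.36 and 4.14 in CFA muscle and 3.30, 3.96 and 3.30 in acid muscle, and its paw and muscle groups overlapped. Npy, which encodes neuropeptide Y, a peptide that large neurons make after axotomy, measured 4.43, 5.07 and 5.13 in saline paw, 6.08, 4.77 and 3.65 in CFA paw, 5.26, 4.10 and 4.72 in saline muscle, 4.19, 4.66 and 4.23 in CFA muscle and 3.79, 4.72 and 6.13 in acid muscle. Its spread within CFA paw and within acid muscle was nearly as wide as its range over all groups. Their paw minus muscle differences after CFA were 0.52 (SE 0.304) for Sox11 and 0.48 (SE 0.574) for Npy, neither called.

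Klf6, a second growth-promoting Krüppel-like factor, measured 4.46, 5.75 and 6.07 in saline paw, 6.12, 6.01 and 6.18 in CFA paw, 5.55, 5.10 and 3.94 in saline muscle, 4.40, 4.81 and 5.08 in CFA muscle and 5.45, 4.70 and 4.71 in acid muscle. Smad1, the effector of BMP signals in regenerating neurons, measured 4.46, 5.33 and 4.67 in saline paw, 5.29, 5.02 and 4.99 in CFA paw, 4.35, 4.09 and 4.62 in saline muscle, 3.95, 4.55 and 4.35 in CFA muscle and 4.03, 3.82 and 4.65 in acid muscle. For both, CFA paw lay wholly above CFA muscle, by 1.34 (SE 0.413, limma with Benjamini-Hochberg adjusted p = 0.0698) for Klf6 and 0.82 (SE 0.253, adjusted p = 0.0708) for Smad1, and neither was called. The other uncalled members with wholly higher CFA paw arrays were Itga7 (an integrin that binds laminin), Stat3, Jun, Csf1 and Bdnf, with differences from 0.25 to 0.82.

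The second comparison asks how skin neurons differed after CFA in the paw. In it 28 of the 34 members had a positive difference, against 47.1% of all genes, with a median of 0.33 against -0.011, and the gene with the largest difference of all 19938 was Sprr1a. No single member passed the test: 0 members and 0 genes were called by limma (0% of all genes), and 4 members (Sema6a, Flrt3, Ecel1 and Csf1) and 241 genes (1.21% of all genes) had an unadjusted p under 0.05. Without saline paw replicate 1, 29 of 34 were positive (48.1% of all genes), the median was 0.19 and 6 members had an unadjusted p under 0.05 (3.61% of all genes), again with 0 called. Other genes moved with that array too: general neuronal markers were positive for 10 of 10 over all arrays (median 0.21) and 1 of 10 without it (median -0.15), and peptidergic nociceptor markers for 5 of 5 (median 0.47) and 2 of 5 (median -0.01). The part of these shifts in the members' values was not tested. The positive count was known from earlier results of these data and is given as a description.

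**Figure D3:**
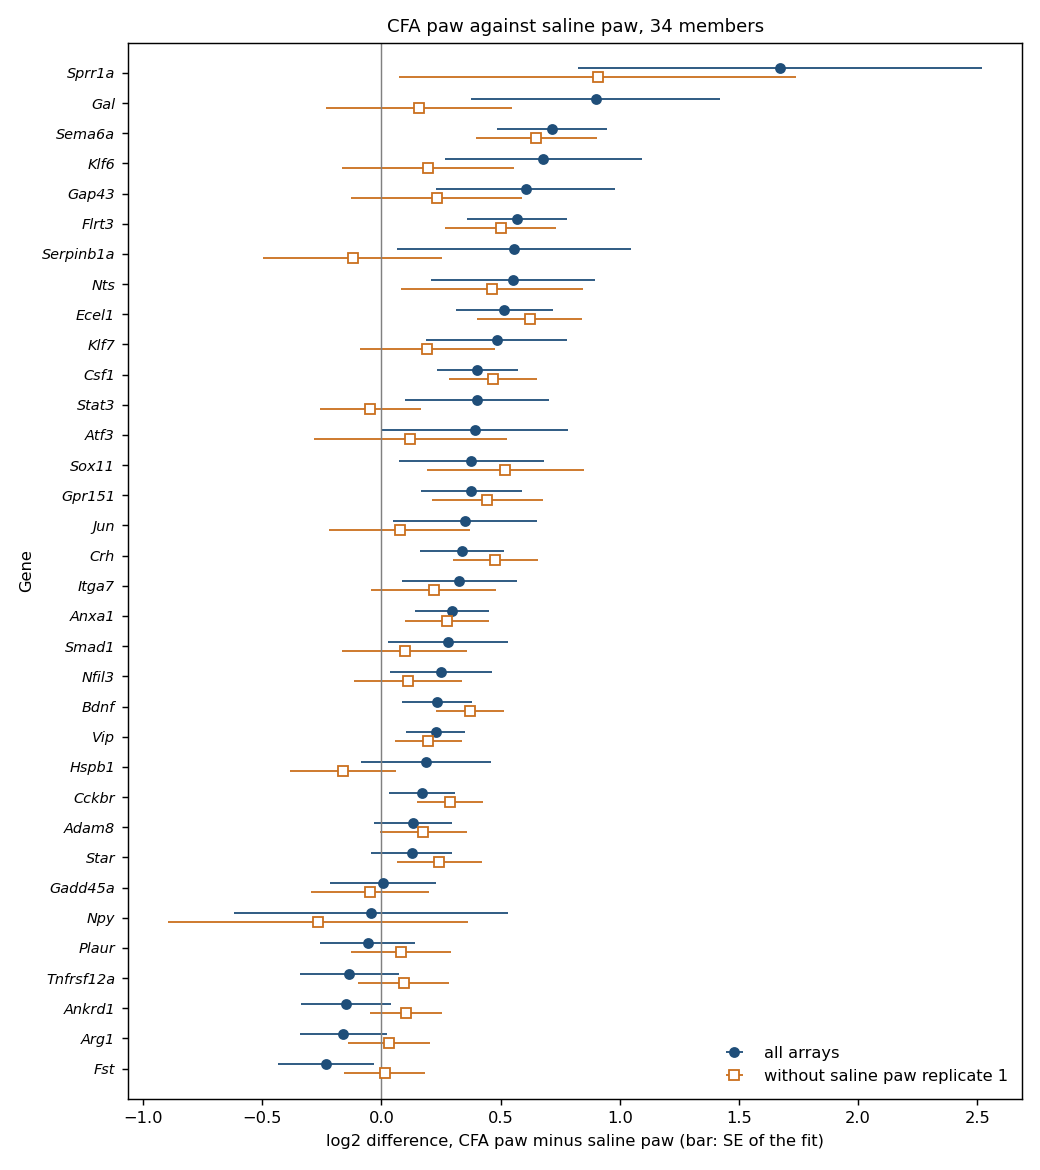
Log2 difference CFA paw minus saline paw for the 34 measured members, with the SE of the fit as bars, over all arrays (filled) and without saline paw replicate 1 (open). Without that array Gal moves from 0.90 to 0.16 and Serpinb1a from 0.56 to -0.12, while Sema6a, Flrt3, Ecel1 and Csf1 stay between 0.47 and 0.65.

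All 8 transcription factors had positive differences, with a median of 0.39. For Atf3, whose values are given above, CFA paw exceeded saline paw by 0.39 (95% interval -0.44 to 1.23), or 0.12 (-0.74 to 0.99) without saline paw replicate 1. Jun differed by 0.35 (-0.29 to 1.00) and 0.08 (-0.55 to 0.71), and Sox11 by 0.38 (-0.27 to 1.03) and 0.52 (-0.18 to 1.22). Over all arrays these intervals hold no change, and those of Atf3 and Sox11 also hold a doubling. Klf6 went from 0.68 to 0.20 and Klf7 from 0.48 to 0.19 without that array. Stat3, the factor that gp130 cytokines activate, measured 5.78, 7.09 and 7.15 in saline paw and 7.02, 7.19 and 7.00 in CFA paw, and its difference of 0.40 became -0.05. Smad1 (0.28) and Nfil3 (0.25), a repressor of the regeneration programme, also kept their sign at 0.10 and 0.11.

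All 5 growth cone, axon and adhesion genes were positive as well, with a median of 0.60. Sprr1a differed by 1.67 (SE 0.848, 95% interval -0.14 to 3.48), and by 0.91 (SE 0.833) without saline paw replicate 1. There it still ranked 1 of 19938 counted from the highest, while the lowest difference over all genes was -1.15. The lowest CFA paw array of Sprr1a (8.65) lay below saline paw replicates 2 and 3. Gap43 went from 0.60 to 0.23. Sema6a differed by 0.72 (SE 0.231, limma with Benjamini-Hochberg adjusted p = 1) with groups that did not overlap, and by 0.65 (SE 0.255) without that array. Flrt3, a membrane protein that steers growing axons, differed by 0.57 (SE 0.211) and 0.50, and Itga7 by 0.33 and 0.22.

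Among the peptides and secreted signals, 6 of 8 were positive, and 3 of them lay wholly above saline paw. Those were Nts, Vip and Csf1, which with Sema6a made 4 such members, against 1.73% of all genes, and none lay wholly below (2.99% of all genes). Without saline paw replicate 1 there were 9 above (12.3%) and 0 below (14.6%). Nts measured 2.20, 2.38 and 2.55 in saline paw, 3.34, 2.83 and 2.61 in CFA paw, 3.54, 3.39 and 3.06 in saline muscle, 2.45, 2.75 and 3.62 in CFA muscle and 2.65, 3.21 and 4.15 in acid muscle. The saline paw mean of Nts (2.38) was under the dim limit, so the difference of 0.55 (SE 0.344), or 0.46 without that array, is set against a group not above background. Csf1 measured 3.89, 3.58 and 3.82 in saline paw, 4.09, 4.48 and 3.91 in CFA paw, 3.78, 3.50 and 3.70 in saline muscle, 3.78, 3.36 and 3.78 in CFA muscle and 3.60, 3.78 and 3.78 in acid muscle. Its 3 CFA paw values were the highest of the 15, and the difference was 0.40 (SE 0.169), or 0.47 without that array. Saline muscle replicate 1, CFA muscle replicates 1 and 3 and acid muscle replicates 2 and 3 had the identical Csf1 value, 3.7815. Identical values also recurred between arrays for Vip, Ecel1, Cckbr and Bdnf, among other members, which can narrow the spread within groups. Their cause was not tested.

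Vip, the gene of vasoactive intestinal peptide, measured 1.56, 1.69 and 1.60 in saline paw, 1.84, 1.84 and 1.85 in CFA paw, 2.00, 1.71 and 2.02 in saline muscle, 1.86, 1.84 and 1.84 in CFA muscle and 1.79, 2.10 and 2.08 in acid muscle, so its groups separated entirely below the dim limit. Gal differed by 0.90 (SE 0.524) over all arrays, ranking 5 of 19938 from the highest, and by 0.16 (SE 0.389) without saline paw replicate 1, ranking 3395. Npy differed by -0.04 (SE 0.574). Bdnf, a growth factor that sensory neurons release in the spinal cord, measured 3.84, 3.38 and 3.48 in saline paw and 3.72, 3.70 and 3.97 in CFA paw, a difference of 0.23 that became 0.37. Crh (0.34), the gene of corticotropin-releasing hormone, was dim in every group. Fst, which encodes the activin antagonist follistatin, measured 3.42, 2.79 and 2.57 in saline paw, 3.00, 2.49 and 2.59 in CFA paw, 2.85, 2.93 and 3.19 in saline muscle, 2.98, 2.95 and 2.95 in CFA muscle and 2.87, 3.19 and 2.98 in acid muscle. Its difference of -0.23 was the lowest of the members and became 0.01 without saline paw replicate 1.

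Of the enzymes and protease inhibitors, Ecel1, a membrane peptidase induced by axotomy, went from 0.52 (SE 0.205) to 0.62 (SE 0.221) and Serpinb1a from 0.56 to -0.12. Arg1 measured 2.48, 1.79 and 2.02 in saline paw, 1.87, 1.92 and 2.03 in CFA paw, 2.27, 2.52 and 2.48 in saline muscle, 2.75, 2.22 and 2.67 in CFA muscle and 2.35, 2.59 and 2.29 in acid muscle, and its difference went from -0.16 to 0.03. Star, which moves cholesterol into mitochondria, measured 2.56, 2.07 and 2.35 in saline paw, 2.58, 2.27 and 2.52 in CFA paw, 2.78, 2.83 and 2.56 in saline muscle, 2.71, 2.33 and 2.18 in CFA muscle and 2.74, 2.90 and 2.58 in acid muscle. It lay close to the dim limit and differed by 0.13 (SE 0.17). Hspb1 went from 0.19 to -0.16, and Anxa1, a protein that curbs inflammation, had 0.30 at a dim level. Cckbr, the receptor for cholecystokinin and gastrin, had 0.17 and Gpr151 0.38. Ankrd1, at a dim level, went from -0.15 to 0.10. The remaining members, Adam8, Gadd45a, Plaur and Tnfrsf12a, had differences from -0.13 to 0.13 over all arrays.

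In muscle neurons neither CFA nor acid gave any called member: 0 members and 0 genes passed in each comparison (0% of all genes, limma), and 0 members had an unadjusted p under 0.05, against 2.6% of all genes after CFA and 2.85% after acid. After CFA 8 of 34 members were positive (47.1% of all genes) with a median of -0.10, and after acid 18 of 34 (53.7%) with a median of 0.01. Both use the same saline muscle arrays. The CFA count was 14 without CFA muscle replicate 1 and 13 without saline muscle replicate 1 or 3.

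Tnfrsf12a, the receptor for the cytokine TWEAK that injured neurons express, measured 4.66, 3.94 and 4.01 in saline paw, 4.39, 4.16 and 3.66 in CFA paw, 3.74, 3.38 and 3.71 in saline muscle, 3.79, 4.09 and 3.84 in CFA muscle and 4.06, 4.04 and 4.0 in acid muscle. Both the CFA and the acid arrays lay wholly above the same saline muscle arrays, by 0.29 (SE 0.209) and 0.43 (SE 0.209). Ankrd1, a stretch-induced nuclear protein, measured 2.75, 1.99 and 2.01 in saline paw, 2.19, 2.06 and 2.06 in CFA paw, 2.18, 2.52 and 2.38 in saline muscle, 2.81, 2.61 and 2.64 in CFA muscle and 2.31, 2.70 and 2.37 in acid muscle, and was wholly higher after CFA in muscle, by 0.33 (SE 0.189). Tnfrsf12a and Ankrd1 were the members wholly above saline muscle after CFA, as were 3.63% of all genes, and Tnfrsf12a and Bdnf after acid, as were 3.98%. Ankrd1 is also a gene of muscle, and 3 of 6 skeletal muscle markers were above the dim limit, at a summed 6.27 to 6.60 in CFA muscle and 6.29 to 6.63 in saline muscle. Fibroblast markers summed to 6.979 to 7.225 in CFA muscle and 6.866 to 7.259 in acid muscle, wholly above saline muscle (6.738 to 6.809). Summed markers of endothelial and mural cells overlapped between these groups. The part of other cell types in the differences of Tnfrsf12a and Ankrd1 was not tested.

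Cckbr measured 3.19, 2.96 and 2.72 in saline paw, 3.33, 3.05 and 3.00 in CFA paw, 3.10, 3.13 and 3.14 in saline muscle, 3.00, 2.85 and 3.00 in CFA muscle and 3.00, 3.08 and 2.97 in acid muscle. It lay wholly below saline muscle after CFA, by -0.18 (SE 0.138; 4.1% of all genes did so), and after acid, by -0.11 (SE 0.138; 2.94%). Stat3 measured 6.79, 6.58 and 6.37 in saline muscle, 6.30, 6.48 and 6.44 in CFA muscle and 6.19, 5.45 and 6.32 in acid muscle, where it lay wholly below saline by -0.59 (SE 0.303). Bdnf measured 3.51, 3.27 and 3.35 in saline muscle, 3.58, 3.58 and 3.48 in CFA muscle and 3.52, 3.52 and 3.81 in acid muscle, and its acid arrays lay wholly above saline by 0.24 (SE 0.147). Sprr1a differed by -0.56 (SE 0.848) after CFA and -0.16 (SE 0.848) after acid, and Atf3 by -0.12 and -0.23 (SE 0.389 each).

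The last comparison asks whether CFA changed the members differently in skin and in muscle neurons. The difference was positive in paw and negative in muscle for 23 of 34 members, positive in both for 5 (Sox11, Nfil3, Bdnf, Anxa1 and Gadd45a), negative in both for 3, and negative in paw but positive in muscle for 3 (Tnfrsf12a, Ankrd1 and Arg1), against 25.3%, 21.8%, 27.6% and 25.4% of all genes. These counts, and the positive count below, reuse the paw values, whose positive count was known from earlier results of these data. They are given as a description. The test of the difference itself (CFA effect in paw minus that in muscle) called 0 members and 0 genes (0%, limma), with 2 members, Sema6a and Flrt3, and 1.63% of all genes at an unadjusted p under 0.05. Sprr1a had the highest value of all genes, 2.23 (SE 1.2), and 1.47 without saline paw replicate 1. The lowest values over all genes were larger in size, -2.24 and -2.22. Serpinb1a ranked next among the members at 1.10, or 0.42 without that array. Sema6a stood at 1.01 (SE 0.326, limma with Benjamini-Hochberg adjusted p = 1) and 0.94 without that array, and Flrt3 at 0.68 (SE 0.298) and 0.61. Gal (0.96), Gap43 (0.96) and Nts (0.94) lay between them, and became 0.22, 0.59 and 0.85. Over all members the value was positive for 29 of 34 (50.2% of all genes) with a median of 0.43, and for 30 with a median of 0.30 without saline paw replicate 1. General neuronal markers were positive for 10 of 10 (median 0.30), and for 3 of 10 (median -0.11) without that array. Markers of large myelinated neurons were positive for 6 of 11 (median 0.24) and 2 of 11 (median -0.16). The part of these shifts in the members' values was not tested here either.

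**Figure D4:**
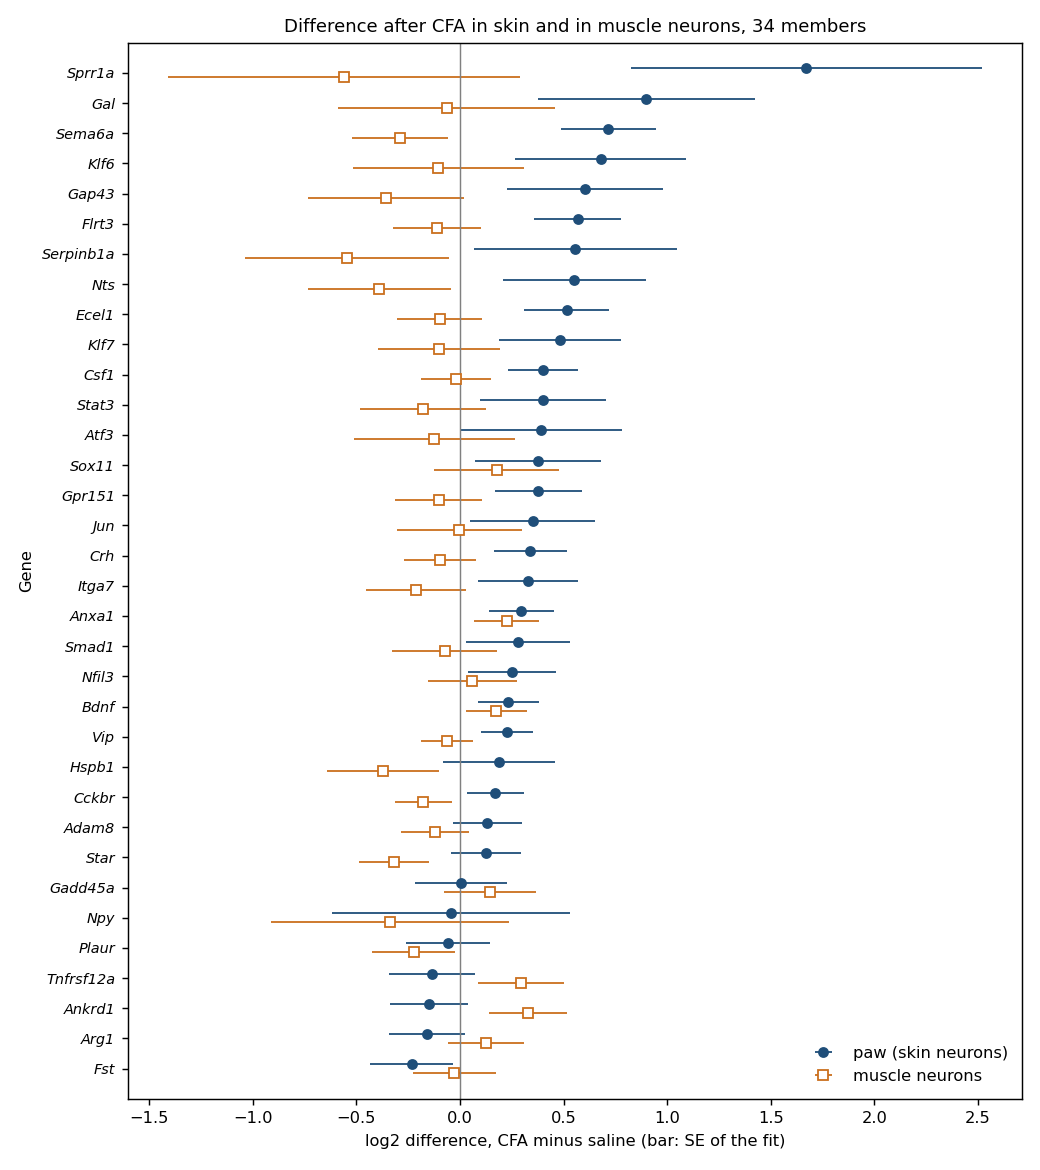
Log2 difference CFA minus saline for the 34 measured members in skin neurons (filled) and in muscle neurons (open), with the SE of the fit as bars. Sprr1a is at 1.67 in skin and -0.56 in muscle neurons, and Sema6a at 0.72 and -0.29.

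Other genes of the regeneration pathways, from lists that hold none of the 35 members, gave the following. The shares of all genes called, 2.04% after saline and 6.41% after CFA in skin against muscle neurons, apply to each list. Some of the listed genes, Stmn2 among them, also served above as cell type markers. Of 18 growth cone and axon extension genes, 17 had a positive difference after CFA in the paw, but 10 did without saline paw replicate 1, and none was called. In the same list 4 were called higher in skin than in muscle neurons after saline (list median 0.92) and 8 after CFA (list median 1.01), none lower. Among them were Stmn2 (1.58 and 1.75), a microtubule regulator of growth cones, Map1b (1.59 and 1.88), a microtubule-binding protein of growing axons, and the adhesion gene Chl1 (1.44 and 2.54). Chl1 also had the smallest p of this list after CFA in the paw (0.80, SE 0.327, not called).

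Of 14 genes of DLK and JNK injury signalling, Mapk10, which encodes the neuronal kinase JNK3, was called higher in skin neurons after saline (1.43) and Mapk10 (1.76), Mapk8ip3 and Jund after CFA. After CFA in the paw 12 of the 14 were positive over all arrays and 1 without saline paw replicate 1. Of 13 gp130 cytokine and STAT3 genes, Cntfr (1.91), a receptor subunit for ciliary neurotrophic factor, and Il6st (1.28), the gp130 chain itself, were higher in skin neurons after CFA, and Osm was lower with both group means under the dim limit. In the BMP and SMAD list of 15, the 1 gene called in each comparison, near the share of all genes after CFA, was the receptor gene Bmpr2 (1.35 after saline and 1.83 after CFA). Of 14 other regeneration-associated transcription factors, Egr1 (1.20) and Myc (2.29) were higher after CFA. Of 12 genes on the axon degeneration list 4 were: the death receptor gene Tnfrsf21 (2.04), Capn1 (1.05), Nmnat2 (0.96) and Bcl2l1 (0.78). Tnfrsf21 was called higher after saline too (1.58).

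Genes that are known to fall in axotomised neurons depended on saline paw replicate 1. Of 19 such genes, 12 had a positive difference after CFA in the paw over all arrays (median 0.10) and 1 without that array (median -0.15), with none called in either. In skin against muscle neurons 5 were called higher and 2 lower after saline, and 8 higher and 2 lower after CFA. Those higher in both included the neurofilament genes Nefh and Nefl, the peptide gene Tac1 and the heat receptor gene Trpv1, and Grik1 and Mrgprd were lower in both. Nefh and Nefl also served as markers of large myelinated neurons, Tac1 and Trpv1 of peptidergic and Mrgprd of non-peptidergic nociceptors. The part of the sorted cell types in these calls was not tested.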

How the data were processed

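RNA (50 ng per sample) from sorted neurons was amplified, labelled and hybridised, per the labels' protocols. The authors' deposited values are on a log2 scale (base read from their range), with RMA and Partek named in the submitters' processing notes; the background step, versions and genome build are not given in the sources used here. Of 35556 probe sets, 21789 name 1 gene, 1621 several and 12146 none, by GEO's platform annotation; 21698 of the gene IDs matched RefSeq. The probe set with the highest mean stood for each gene. Group means were fitted over all 15 arrays with limma 3.58.1 (R 4.3.3; lmFit, eBayes, two-sided), adjusted by Benjamini-Hochberg over 19938 genes with a threshold of 0.05; 10 residual and 4.33 prior degrees of freedom gave the intervals. The fit was also run on simulated data, in which the spread of a gene was the same on every array. No simulated array stood apart as saline paw replicate 1 did, so that run does not cover such a case. The number of arrays limits the precision. The members and lists were chosen with earlier results of these data known. Values on every array are given for a fixed core of members, for called members, for those whose groups do not overlap and for the largest and smallest differences. Alternatives covered scaling, dim genes, arrays fitted, array weights, probe sets, variance model, replicate numbers as a block and each array left out.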

Additional observations from a re-analysis of the deposited data

How the results depend on the processing

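Calls among the members held least firmly for saline paw against saline muscle. There 2 members and 407 genes were called, and leaving out single arrays gave 0 to 7 members, 51 to 3824 genes and medians of 0.054 to 0.23. Centring each array on its median gave 213 genes and 1 member (median 0.23), the variance trend gave 1 member, a fit of those arrays alone gave 0 and 0, and array weights gave 7379 genes and 14 members. Those weights were 0.148, 0.959 and 7.18 for saline paw replicates 1, 2 and 3, so that group rested mostly on replicate 3. The member median was 0.016 with quantile scaling, 0.0046 with cyclic loess, 0.23 without dim genes and 0.062 with array SD as a covariate, an alternative chosen after seeing the data.

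For CFA paw against CFA muscle, single arrays left out gave 6 to 9 members, 527 to 832 genes and medians of 0.29 to 0.66. Quantile scaling gave 763 genes and a median of 0.23, cyclic loess a median of 0.28, the arrays alone 3209 genes and 14 members, array weights 4054 and 17, and array SD 444 and 4. Centring moved the median of all genes from -0.041 to 0.068. For CFA paw against saline paw, array weights called 125 genes and 2 members, Ecel1 and Sema6a. Here too saline paw rested mostly on replicate 3, with a weight of 7.18. For CFA against saline muscle, leaving out single arrays gave 0 to 8 genes, medians of -0.20 to -0.063 and 8 to 14 positive members, and 5 were positive without dim genes. For the difference of the CFA effects, array weights gave a median of 0.28, and single arrays left out gave 0.28 to 0.48 and 0 to 1 genes.

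Correlations of same-numbered deviations from the group means ran from -0.50 to 0.25. Deviations within a group sum to zero over few arrays, and saline paw replicate 1 stood apart. These correlations therefore cannot decide whether the replicate numbers pair the arrays. With the replicate number as a block, 316 genes and 2 members were called for saline paw against saline muscle, 1144 and 7 for CFA paw against CFA muscle and 0 otherwise.

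Uncalled members changed sign as follows, and the cause was not tested. For CFA paw minus saline paw, array weights gave Stat3 -0.030, Fst 0.078, Hspb1 -0.078 and Ankrd1 0.082; arrays left out gave ranges of -0.046 to 0.64 for Stat3, -0.41 to 0.013 for Fst, -0.12 to 0.92 for Serpinb1a, -0.31 to 0.033 for Arg1, -0.16 to 0.40 for Hspb1, -0.28 to 0.10 for Ankrd1 and -0.67 to 0.55 for Npy. In muscle they gave Sprr1a -1.14 to 0.26 and Atf3 -0.57 to 0.15 after CFA, and -0.68 to 0.68 and -0.68 to 0.046 after acid. For saline paw minus saline muscle, quantile scaling gave Atf3 -0.20, Jun -0.31 and Npy -0.10, cyclic loess -0.22, -0.37 and -0.043, array SD -0.35, -0.39 and -0.52 with Arg1 at 0.035, and array weights Sox11 -0.019; arrays left out gave Npy -0.12 to 0.47 and Atf3 -0.20 to 0.52. For CFA paw minus CFA muscle, centring, quantile scaling and cyclic loess gave Nts 0.097, 0.073 and 0.099 and Vip 0.11, 0.12 and 0.11; Jun was -0.088, -0.13 and -0.15 with quantile scaling, cyclic loess and array SD, and Npy -0.36 with array SD. Arrays left out gave Vip -0.0052 to 0.0041, Nts -0.26 to 0.33, Star -0.061 to 0.20 and Npy -0.15 to 1.07. The 3 arrays a group and the dim level of 6 members limit what can be seen.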
